A study of Mus musculus with 8 samples.

Results

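The genes described here encode the hnRNP proteins, the SR proteins and the Tra2 proteins, the main families of RNA-binding proteins that decide which exons are kept when pre-mRNA is spliced. They were chosen by name: every gene whose symbol begins with Hnrnp, or with Srsf and a number, plus Tra2a and Tra2b, without names marked as pseudogenes, and with at least 1 TPM (reads per base of transcript, brought to 1 common total per library) in at least 2 libraries. Of 33 genes matched by name, 32 reached that level, out of 14985 tested genes and 54134 genes in all; they comprised 20 hnRNP genes, 10 SR genes and 2 Tra2 genes. Srsf12 was left out because it was listed at 0 in all 3 GC+GW9662 libraries, at 0, 0.0843 and 0 TPM in GC and at 0.0321 and 0.0299 TPM in Control, where 3 reads would equal 0.0823 to 0.102 TPM.

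SR proteins have 1 or more RNA recognition motifs and a tail rich in arginine and serine, bind short exonic enhancers and help to recruit the spliceosome to nearby splice sites. Many hnRNP proteins coat nascent transcripts and bind silencers, and so often act against SR proteins on the same exon. Both families control their own amount: most SR genes carry an ultraconserved exon with an early stop codon, and transcripts that include it are destroyed by nonsense-mediated decay (NMD). In fat cells, SR and hnRNP proteins are known for setting the isoforms of regulators of adipogenesis and of lipid synthesis.

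RNA was measured in 8 libraries of wild-type mouse bone marrow adipocytes (labelled BMAd), made by growing bone marrow stem cells and differentiating them toward fat cells in culture for 14 days. Cultures labelled GC+GW9662 (n = 3) received 1e-06 M dexamethasone (DEX, a synthetic glucocorticoid) plus GW9662, which blocks PPARgamma, the master regulator of fat cells, and whose dose is not given in the sources used here, for 24 hours. Cultures labelled GC (n = 3) received the same DEX alone for 24 hours, and cultures labelled Control (n = 2) were differentiated without either. Whether replicate libraries stem from different cultures is not given in the labels, and the spread behind each p-value may therefore be technical. Library depth, estimated from the steps between low TPM values, was 18184540 to 19251986 reads in GC+GW9662, 19536924 to 27896234 in GC and 25970340 to 27314736 in Control.

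Some facts of the whole series bear on every value below. Fkbp5 and Tsc22d3, known glucocorticoid-induced genes, were lower in libraries labelled GC than in libraries labelled Control (32.5, 80.3 and 62.8 against 463 and 429 TPM for Fkbp5), the opposite of their known response, so each direction rests on the labels. Fth1 alone held 132998 to 135376 TPM in GC, against 37695 and 36852 in Control, and takes its share from all other genes. GC replicate 1 stood apart: 25 of the 32 splicing genes (78.1%) were lower in it than in both other GC libraries, as were 56.5% of all tested genes. Differences also followed transcript length: the median log2 difference of GC+GW9662 from GC was 0.41 in the shortest and -0.53 in the longest of 10 equal bins of genes, that of GC from Control 0.18 and -1.02, and that of GC+GW9662 from Control, the steepest, 0.59 and -1.67. A length trend also lay between libraries of 1 label. GC replicate 1 differed from the mean of GC replicates 2 and 3 by 0.21 in the shortest bin and -0.82 in the longest. The 9 adipocyte markers summed to 1084 to 1227 TPM in GC+GW9662, 37.4 to 52.6 in GC and 1192 to 1194 in Control, with Lep at 0 throughout, and the 9 macrophage markers to 24435 to 28423, 9441 to 9988 and 30904 to 31809 TPM. Of the macrophage markers 8 passed lower in GC than in Control, and 7 passed higher in GC+GW9662 than in GC. Cd68 went the other way in both, averaging 594 TPM in GC+GW9662, 2651 in GC and 979 in Control. The 7 stromal markers summed to 259 to 289, 44.8 to 77.3 and 791 to 835 TPM in the same groups. Of 5 neutrophil markers only 1, S100a8, was high enough to be tested, and it was the highest in GC. The part of these shifts in the differences below was not tested, and in such bulk samples fewer cells of a type cannot be told apart from less RNA per cell.

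The promoters of 4 SR genes are printed as a description, and any part of them in the differences was not tested. As deposited, Srsf2 and Srsf7 rose in GC, and Srsf1 and Srsf3 fell in GC and were higher again with GW9662. The falls in GC were less firm: with the length trend removed Srsf1 was -0.25 and Srsf3 0.08, and neither passed. Srsf3 was -0.11 under median-ratio scaling and did not pass there. Sequences are from RefSeq (GRCm38.p6) and are the first listed window of each gene. They run from 250 bases before to 50 bases after the transcription start, 5′ to 3′ on the gene's strand. Capitals mark matches on either strand to a CCAAT box (CCAAT), a GC box (GGGCGG), an ETS core (CCGGAA) or a CRE core (TGACG); adjacent or overlapping matches run together.
Srsf2, chr11:116853045-116853344, minus strand: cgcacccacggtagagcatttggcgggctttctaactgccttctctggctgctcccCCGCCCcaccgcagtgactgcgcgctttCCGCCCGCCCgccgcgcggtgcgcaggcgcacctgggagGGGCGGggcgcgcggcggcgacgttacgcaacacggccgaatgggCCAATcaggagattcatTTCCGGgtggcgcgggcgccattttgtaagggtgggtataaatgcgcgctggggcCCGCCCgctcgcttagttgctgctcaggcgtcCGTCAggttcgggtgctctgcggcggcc
Srsf7, chr17:80207256-80207555, minus strand: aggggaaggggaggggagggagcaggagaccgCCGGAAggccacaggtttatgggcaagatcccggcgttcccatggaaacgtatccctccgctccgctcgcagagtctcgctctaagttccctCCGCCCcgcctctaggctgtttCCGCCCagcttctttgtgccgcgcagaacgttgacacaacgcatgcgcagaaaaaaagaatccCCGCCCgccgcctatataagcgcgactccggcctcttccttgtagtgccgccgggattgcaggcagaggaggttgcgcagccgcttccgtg
Srsf1, chr11:88047123-88047422, plus strand: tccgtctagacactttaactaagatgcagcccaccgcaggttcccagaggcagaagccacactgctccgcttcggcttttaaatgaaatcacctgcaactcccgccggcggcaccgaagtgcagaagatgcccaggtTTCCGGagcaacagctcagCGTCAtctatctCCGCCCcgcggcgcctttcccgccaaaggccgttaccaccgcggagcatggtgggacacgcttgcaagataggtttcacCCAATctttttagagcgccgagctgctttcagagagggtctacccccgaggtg
Srsf3, chr17:29032410-29032709, plus strand: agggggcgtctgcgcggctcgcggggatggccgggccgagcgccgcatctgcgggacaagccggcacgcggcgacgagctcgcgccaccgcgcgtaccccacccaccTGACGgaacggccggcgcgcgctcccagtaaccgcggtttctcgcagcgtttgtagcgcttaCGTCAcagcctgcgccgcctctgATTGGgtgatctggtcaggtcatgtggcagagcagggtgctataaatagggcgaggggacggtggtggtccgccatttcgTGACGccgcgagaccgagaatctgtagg

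The 4 windows differed most in GC boxes, which were more in Srsf2 and Srsf7 than in Srsf1 and Srsf3, a description of 4 genes with no test. This contrast did not extend to Tra2b and Hnrnpab, which also rose in GC and had 1 GC box each, as many as Srsf1. Counts of single genes are from the first listed window of each, and any other windows of these genes were not counted singly. Srsf2 had 5 GC boxes and 1 each of the other 3 capitalised motifs, and Srsf7 had 3 GC boxes and 1 ETS core. Srsf1 had 1 of each of these 4, and Srsf3 had 1 CCAAT box, 3 CRE cores and 0 GC boxes. Over 42 promoter windows of the 30 matched genes, 35 (83.3%) held a GC box, 25 (59.5%) a CRE core, 22 (52.4%) a CCAAT box and 17 (40.5%) an ETS core. Among all 32851 windows of the same length these shares were 35.7%, 20.8%, 37.4% and 14.9%. A TATA box (TATAAA on either strand), not capitalised above and present once each in Srsf2 and Srsf3, was in 4 splicing gene windows (9.52%) and in 13.6% of all. Over the windows, the median GC content was 66.8% in the splicing gene windows and 52.7% in all.

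The comparison of GC with Control asks how the cultures differed after a day of glucocorticoid. In GC, the SR genes split: Srsf7, Srsf2 and the enhancer-binding Tra2b rose, and Srsf1, Srsf3 and Srsf6 fell. Among hnRNP genes Hnrnpab alone rose, and 7 fell, led by Hnrnpul1, Hnrnpd and Hnrnpl. In all, 4 of 32 genes passed higher and 10 lower (limma on log2(TPM + 1), Benjamini-Hochberg adjusted p under 0.05 over all tested genes), and 18 did not pass. Of all tested genes 55.3% passed, 16.2% higher and 39.1% lower, so the share of splicing genes that passed (43.8%) lay below the background. Their median difference was -0.30, against -0.38 over all tested genes.

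The direction of that split depended on how the libraries were scaled. Median-ratio scaling, which moved the median of all genes from -0.38 to 0.04, gave 14 splicing genes higher and 3 lower, beside 27.2% and 26.9% of all genes (54.0% in all). With the length trend removed the counts were 14 higher and 2 lower, beside 30.0% and 25.8% of all genes (55.7% in all). Without GC replicate 1 they were 8 higher and 11 lower, beside 20.3% and 41.5% (61.8% in all). Hnrnpab, Srsf2, Srsf7 and Tra2b passed higher, and Hnrnpl and Hnrnpul1 passed lower, under all 22 alternatives. Srsf1 passed lower under all but the removal of the length trend (-0.25, adjusted p = 0.48), and Srsf3 under all but that, median-ratio scaling and quantile normalization.

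The comparison of GC+GW9662 with GC asks what the PPARgamma inhibitor changed in the presence of DEX. This contrast too rests on the labels. Tsc22d3 measured 432, 401 and 455 TPM in GC+GW9662 and 50.9, 65.4 and 62.7 in GC, although both received DEX. Fkbp5 differed in the same direction and did not pass (0.78 ± 0.30 SE, limma adjusted p = 0.0501). All 7 tested adipocyte markers passed higher in GC+GW9662, although GW9662 blocks the master regulator of fat cells (Adipoq averaged 251 TPM against 3.71 in GC). Srsf1 and Srsf3 rose by about 1 on the log2 scale, which is about 2 times the level in GC, and Srsf9 rose slightly, while 17 genes fell. The genes that fell included Srsf11, Hnrnpab, Srsf2, Srsf5 and Tra2b, the hnRNP H/F genes and the hnRNP U genes. Of the hnRNP genes 0 of 20 passed higher by limma (0 also at an unadjusted p under 0.05, and 2 by limma voom on reads recovered from the TPM) and 11 passed lower, and among SR and Tra2 genes 3 passed higher and 6 lower. In all 20 of 32 passed (62.5%), near the 61.7% of all tested genes, but 53.1% passed lower and 9.4% higher, beside 33.5% and 28.3% of all genes. The median difference was -0.47 in the splicing genes and -0.11 in all genes.

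Here the counts were less dependent on scaling, with 2 higher and 15 lower under median-ratio scaling, beside 30.8% and 31.8% of all genes (62.5% in all), and 2 higher and 16 lower with the length trend removed, beside 31.0% and 33.1% (64.1% in all). Srsf1 and Srsf3 passed higher, and Hnrnpa2b1, Hnrnpab, Hnrnpf, Hnrnph1, Hnrnph2, Hnrnpll, Srsf11, Srsf2, Srsf5 and Tra2b passed lower, under all 22 alternatives. The count of lower genes was 11 without GC replicate 2, without GC replicate 3 and without GC+GW9662 replicate 3, and 20 without GC replicate 1. That omission gave 3 higher, and 72.1% of all genes passed, 29.6% higher and 42.5% lower. This comparison and the one before it share the GC libraries, so opposite signs in the pair are not independent of each other.

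The comparison of GC+GW9662 with Control shows where the doubly treated cultures stood relative to untreated ones. In GC+GW9662, Srsf7, Srsf3 and Srsf9 passed higher and 21 genes passed lower, among them 16 of 20 hnRNP genes and 5 of 12 SR and Tra2 genes. The share that passed was 75.0%, beside 62.7% of all tested genes, with 9.4% higher and 65.6% lower beside 14.1% and 48.6%. The medians were -0.66 in the splicing genes and -0.49 in all genes. Scaling decided most of these calls: median-ratio scaling gave 8 higher and 11 lower, beside 29.3% and 31.7% of all genes (60.9% in all), and removal of the length trend gave 11 higher and 6 lower, beside 23.5% and 21.3% (44.8% in all). Without GC replicate 1 they were 4 higher and 22 lower, beside 17.2% and 51.7% (68.8% in all). Hnrnph2, Hnrnpl, Hnrnpul1, Hnrnpul2 and Srsf11 passed lower and Srsf7 passed higher under all 22 alternatives. Without Control replicate 1, the counts were 1 higher and 12 lower.

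**Figure D1:**
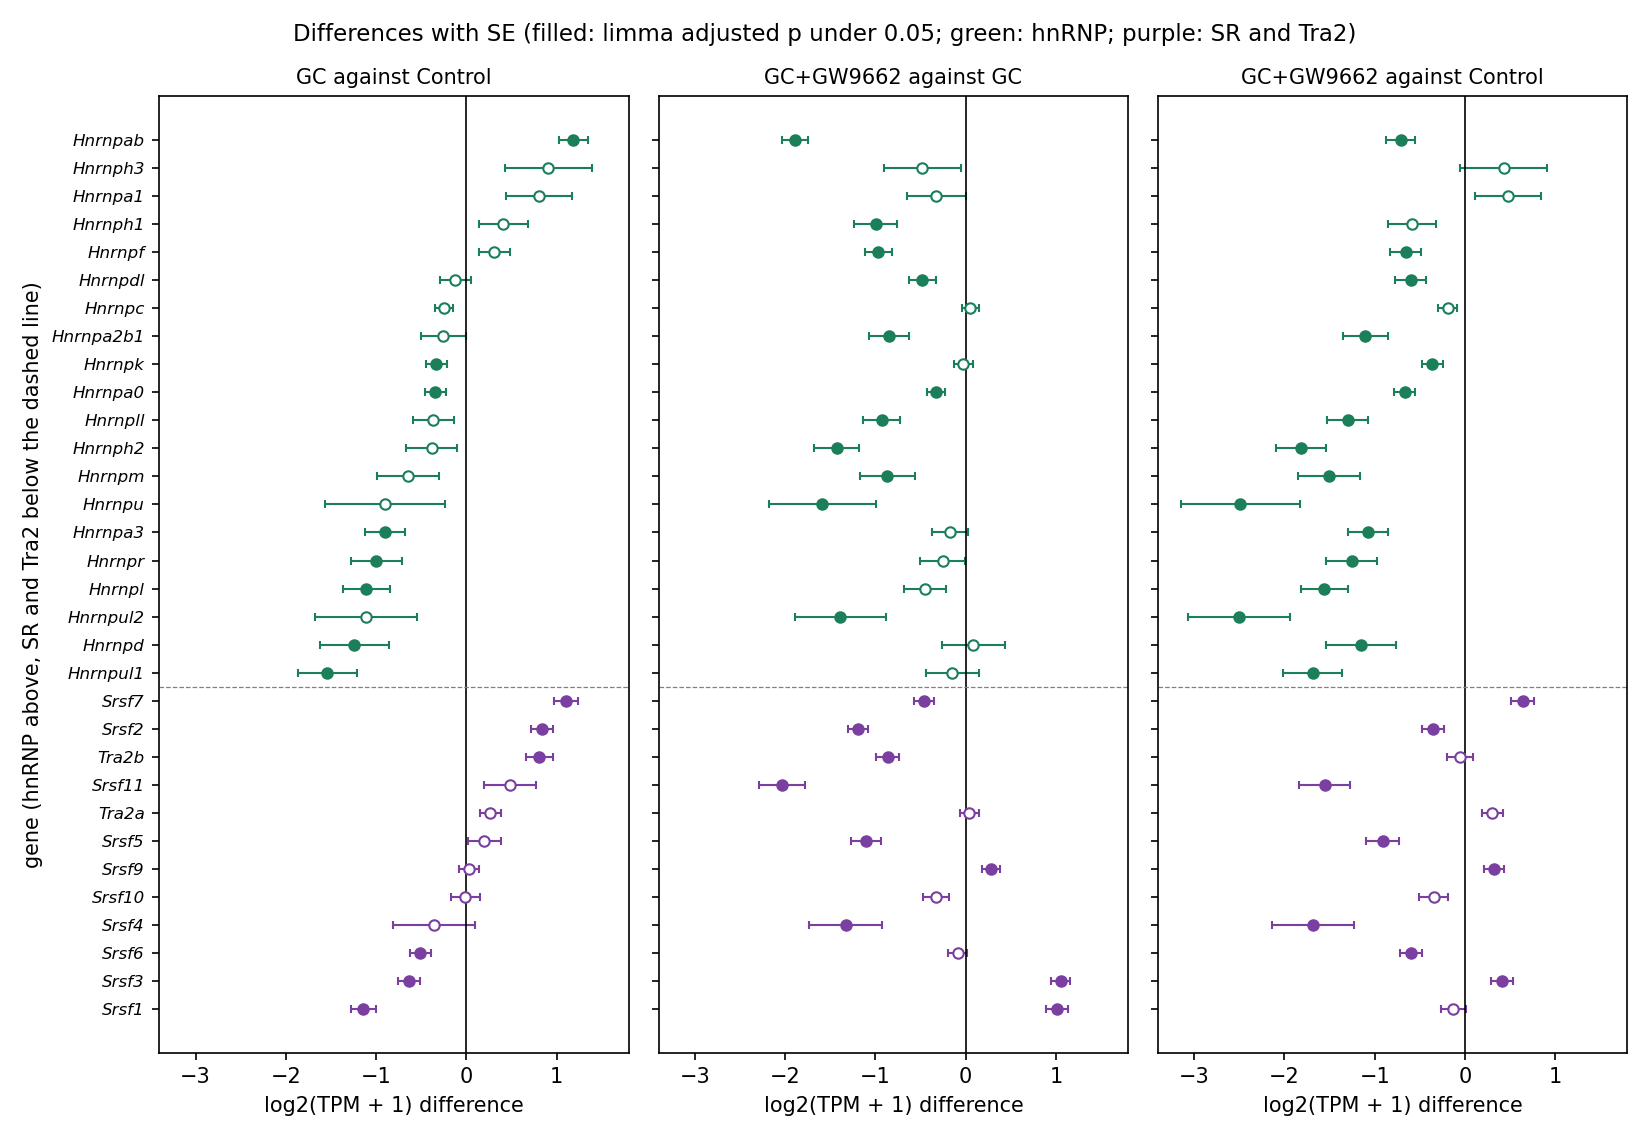
Differences on log2(TPM + 1) with their SE (x axis) for 32 splicing genes (rows; hnRNP genes above and SR and Tra2 genes below the dashed line) in 3 comparisons; filled points passed limma at an adjusted p under 0.05. Points lie on both sides of 0 in GC against Control, where 4 passed higher and 10 lower, and mostly left of 0 in both comparisons of GC+GW9662, where 3 passed higher against GC (Srsf1, Srsf3 and Srsf9) and 3 against Control (Srsf3, Srsf7 and Srsf9).

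Groups did not overlap in TPM for 22 of 32 splicing genes between GC and Control, 17 of 32 between GC+GW9662 and GC and 28 of 32 between GC+GW9662 and Control, beside 71.9%, 64.1% and 79.0% of all tested genes. As a sum, the 20 hnRNP genes made up 1021 to 1181 TPM in GC+GW9662, 1717 to 2625 in GC and 1957 to 2064 in Control. Much of the GC sum was Hnrnpab: without it the sums were 739 to 885, 887 to 1430 and 1517 to 1592 TPM in the same groups. The 12 SR and Tra2 genes summed to 559 to 602 TPM in GC+GW9662, 717 to 821 in GC and 631 to 648 in Control.

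Among the SR proteins, Srsf1, the founding member that activates exons and was first purified as a splicing factor, measured 53.5, 58.8 and 48.5 TPM in GC+GW9662, 28.7, 23.3 and 26.1 in GC and 59.6 and 57.6 in Control. Every GC library was below all others, and the GC+GW9662 and Control libraries overlapped. The difference on log2(TPM + 1), given here and below with its SE, was 1.01 ± 0.12 between GC+GW9662 and GC (limma adjusted p = 2.5e-04) and -1.14 ± 0.14 between GC and Control (adjusted p = 2.3e-04). Between GC+GW9662 and Control it was -0.13 ± 0.14 as deposited (adjusted p = 0.43) and 1.24 with the length trend removed (adjusted p = 0.0091). Srsf3, a small SR protein that also couples splicing to mRNA export, stood at 57.2, 60.9 and 54.1 TPM in GC+GW9662, 28.8, 25.7 and 27.1 in GC and 40.9 and 44.8 in Control. The 3 groups did not overlap and ran GC+GW9662, Control, GC from high to low. It was 1.05 ± 0.11 higher in GC+GW9662 than in GC (adjusted p = 1.0e-04), and the GC difference from Control was -0.64 ± 0.12 (adjusted p = 0.0025), which became 0.08 with the length trend removed. Its difference of 0.41 ± 0.12 between GC+GW9662 and Control (adjusted p = 0.017) needed both Control libraries to pass.

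Srsf2, which concentrates in nuclear speckles, went the other way from Srsf1. It measured 116, 119 and 107 TPM in GC+GW9662, 231, 292 and 266 in GC and 144 and 148 in Control, with no overlap between groups. The GC libraries were the high ones, by 0.84 ± 0.12 against Control (limma adjusted p = 6.0e-04), and GC+GW9662 fell by 1.19 ± 0.11 against GC (adjusted p = 5.1e-05). Between GC+GW9662 and Control it was -0.36 ± 0.12 as deposited (adjusted p = 0.033), and it passed lower under 10 of 22 alternatives. Under median-ratio scaling it was 0.33 and passed higher (adjusted p = 0.044). Srsf7, a zinc-knuckle SR protein that serves in mRNA export, measured 61.8, 68.02 and 60.6 TPM in GC+GW9662, 96.4, 78.1 and 89.7 in GC and 41.96 and 38.7 in Control. Here Control was the lowest group and GC the highest, again without overlap. It was higher than Control in GC by 1.10 ± 0.13 (adjusted p = 1.8e-04) and in GC+GW9662 by 0.64 ± 0.13 (adjusted p = 0.004). The fall against GC (-0.46 ± 0.11, adjusted p = 0.0089) was lost under median-ratio scaling (-0.32).

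Srsf11 (chr3:158010473-158036639, minus strand, GRCm38), an SR protein that contacts U2AF and the early spliceosome, had the largest fall of the SR genes with GW9662. It measured 11.8, 11.2 and 12.2 TPM in GC+GW9662, 32.8, 71.4 and 57.4 in GC and 36.01 and 36.8 in Control. All GC+GW9662 libraries were below every other library, while GC replicate 1 lay below Control and the other GC libraries above it. GC+GW9662 was -2.04 ± 0.25 against GC (limma adjusted p = 2.8e-04) and -1.55 ± 0.28 against Control (adjusted p = 0.0031), the second of which was -0.83 with the length trend removed and still passed. Srsf5, an SR protein known to respond to insulin, measured 19.2, 16.3 and 18.5 TPM in GC+GW9662, 31.9, 45.3 and 43.9 in GC and 37.8 and 31.7 in Control. Its GC+GW9662 libraries were again the lowest, with a difference of -1.11 ± 0.17 from GC (adjusted p = 7.1e-04), and GC overlapped Control. Against Control its GC+GW9662 difference was -0.91 ± 0.18 (adjusted p = 0.0042), which became -0.24 under median-ratio scaling and was lost. In GC against Control, Srsf11 and Srsf5 did not pass as deposited and passed higher under median-ratio scaling, at 1.01 and 0.73.

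Srsf4, one of the larger SR proteins, measured 8.22, 4.81 and 5.66 TPM in GC+GW9662, 8.04, 27.4 and 21.01 in GC and 24.6 and 19.4 in Control. GC replicate 1 lay inside the GC+GW9662 range, and the fall against GC (-1.33 ± 0.41, limma adjusted p = 0.022) was lost when GC replicate 2, GC replicate 3, GC+GW9662 replicate 2 or GC+GW9662 replicate 3 was left out. Srsf6, its close relative, measured 52.6, 44.9 and 51.1 TPM in GC+GW9662, 48.7, 54.6 and 54.7 in GC and 75.6 and 74.9 in Control. Control was above both treated groups, which overlapped each other. Its lower level in GC (-0.51 ± 0.12, adjusted p = 0.0076) and in GC+GW9662 (-0.60 ± 0.12, adjusted p = 0.0041) than in Control became 0.03 and 0.08 under median-ratio scaling, and the GC call was lost without either Control library.

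Srsf9, a short SR protein close to Srsf1 in sequence, measured 138, 148 and 128 TPM in GC+GW9662, 119.96, 106 and 113 in GC and 114 and 107 in Control. The GC+GW9662 libraries were above all others, and GC overlapped Control. Its small rise against GC (0.28 ± 0.10, limma adjusted p = 0.036) passed under 8 of 22 alternatives and was -0.03 with the length trend removed. The Srsf9 rise in GC+GW9662 against Control (0.32 ± 0.11, adjusted p = 0.035) passed under 13 of 22 alternatives. Among others, it was lost without either Control library and with the length trend removed (0.20). Srsf10, which turns into a general repressor of splicing when dephosphorylated, did not pass in any comparison as deposited, at 19.1 ± 2.98 TPM in GC+GW9662, 24.2 ± 1.34 in GC and 24.4 ± 0.787 in Control (mean ± SD). With the length trend removed, its difference of GC from Control was 0.66 and passed (adjusted p = 0.011).

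**Figure D2:**
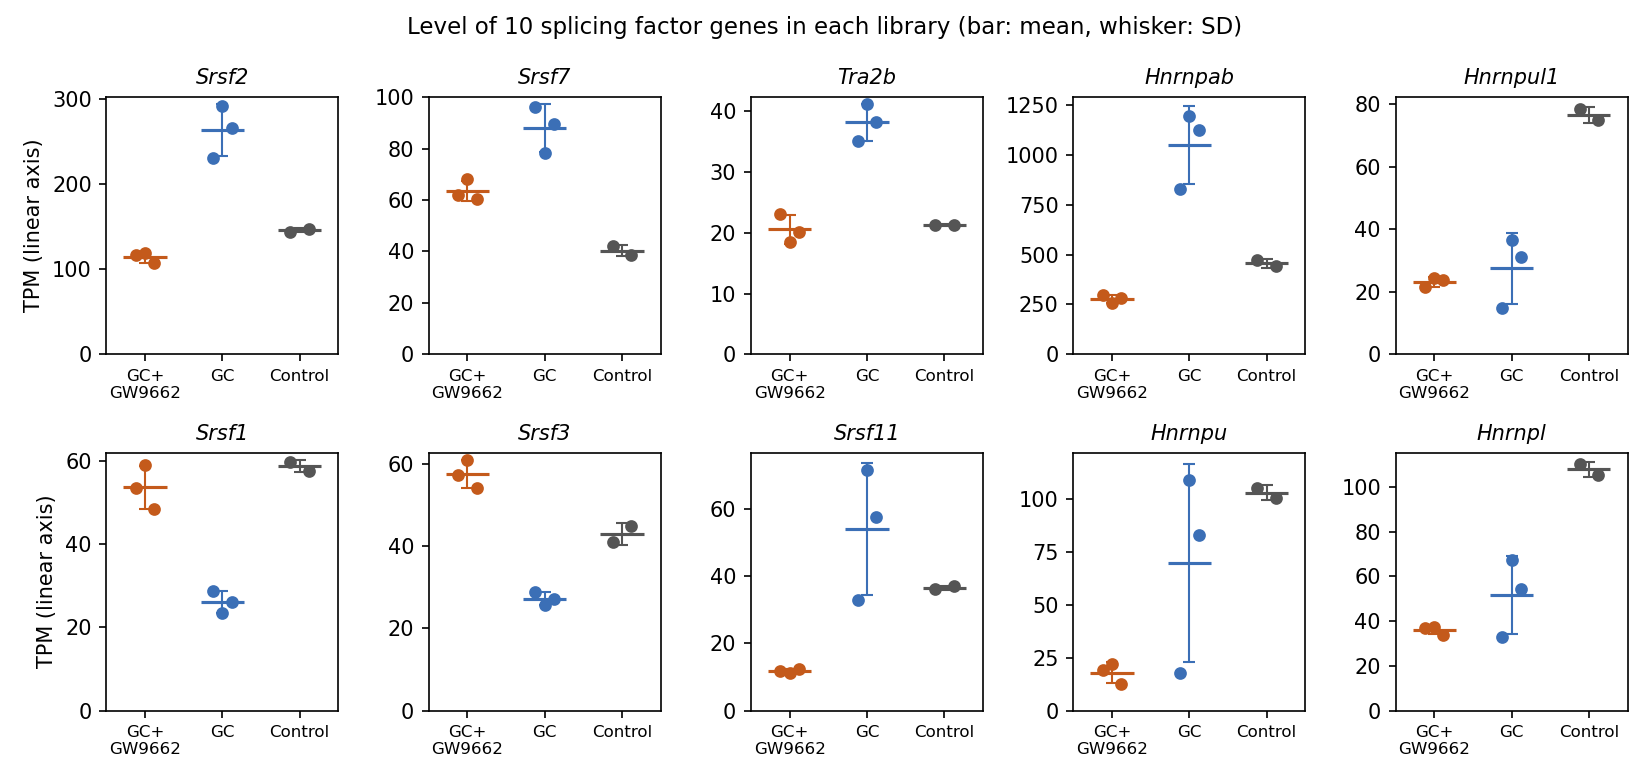
TPM (linear y axes from 0) of 10 splicing factor genes in each library of GC+GW9662 (n = 3), GC (n = 3) and Control (n = 2); points are libraries, bars means and whiskers SD. GC libraries are the highest for Srsf2, Srsf7, Tra2b and Hnrnpab and the lowest for Srsf1 and Srsf3, and GC replicate 1 (left point) lies far below the others for Hnrnpu.

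The Tra2 proteins bind GAA-rich exonic enhancers and carry arginine-serine tails at both ends. Tra2b (chr16:22244549-22266005, minus strand, GRCm38) measured 23.1, 18.4 and 20.2 TPM in GC+GW9662, 35.1, 41.3 and 38.3 in GC and 21.3 and 21.4 in Control. GC stood above the other groups, which overlapped, by 0.81 ± 0.14 against Control (limma adjusted p = 0.0018), and GC+GW9662 was -0.87 ± 0.13 against GC (adjusted p = 7.3e-04). Between GC+GW9662 and Control, Tra2b was -0.06 ± 0.14 as deposited and 0.60 under median-ratio scaling, where it passed higher (adjusted p = 0.0055). Its paralogue Tra2a measured 31.7, 35.5 and 32.8 TPM in GC+GW9662, 31.9, 31.8 and 33.3 in GC and 26.9 and 26.7 in Control. Tra2a was slightly lower in Control and did not pass in any comparison as deposited, with 0.26 ± 0.12 between GC and Control (adjusted p = 0.091). It passed higher under 5 of 22 alternatives in GC against Control, among them median-ratio scaling (0.79, adjusted p = 0.0037), and under 10 of 22 in GC+GW9662 against Control, where median-ratio scaling gave 0.97 (adjusted p = 0.0036).

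Ratios of 2 genes within a library do not change with a common scale, and these 4 were chosen after their values were seen, so they carry no test. Srsf2 was 2.18, 2.02 and 2.21 times Srsf1 in GC+GW9662, 8.06, 12.5 and 10.2 times in GC and 2.42 and 2.56 times in Control. Srsf7 was 1.08, 1.12 and 1.12 times Srsf3 in GC+GW9662, 3.35, 3.04 and 3.31 times in GC and 1.02 and 0.865 times in Control. In both pairs the GC libraries stood apart from all others, and GC replicate 1 lay with or near its group. The ratio of Tra2b to Tra2a was 0.729, 0.52 and 0.614 in GC+GW9662, 1.099, 1.297 and 1.15 in GC and 0.792 and 0.8 in Control. Hnrnpab was 8.05, 6.93 and 8.31 times Hnrnpl in GC+GW9662, 25.2, 17.8 and 20.7 times in GC and 4.28 and 4.18 times in Control. Transcript lengths differ within the pairs, so a shift with length can still enter these ratios: the longest annotated transcripts have 1899 bases for Srsf2 and 5362 for Srsf1, 2403 for Srsf7 and 4010 for Srsf3, 4112 for Tra2b and 3788 for Tra2a, and 2370 for Hnrnpab and 2679 for Hnrnpl. For Srsf7 and Srsf3 these lengths did not give whole numbers of reads, so the lengths behind their TPM may differ.

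**Figure D3:**
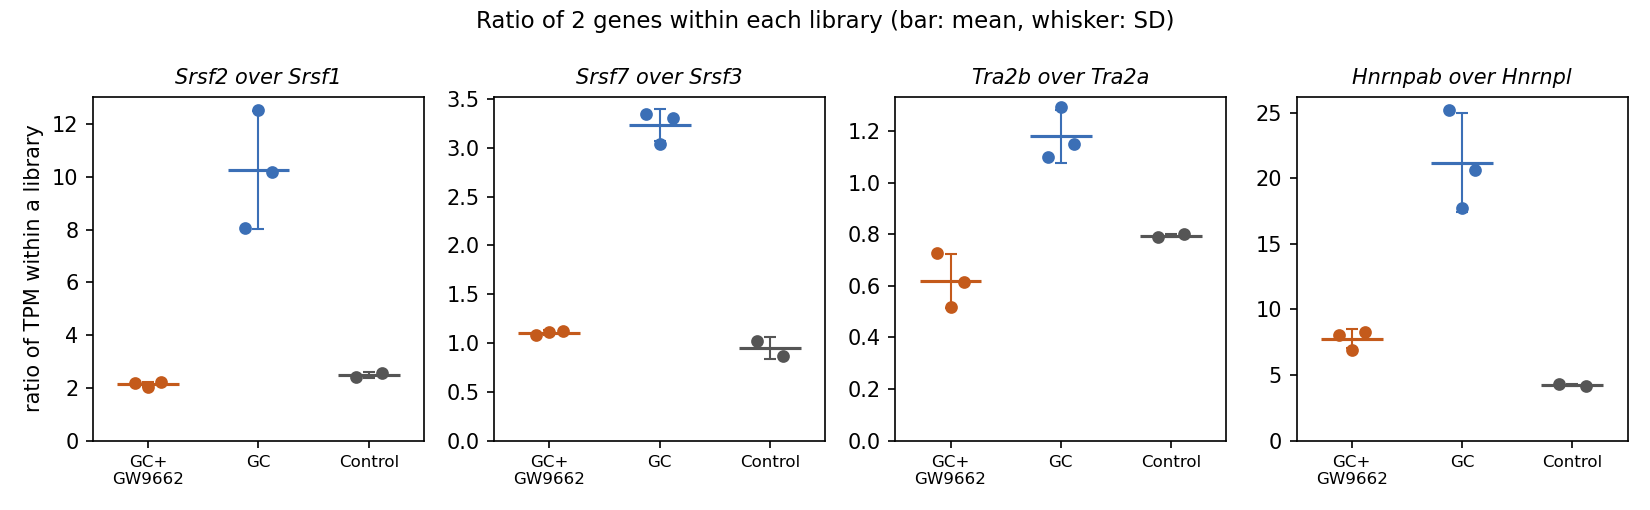
Ratio of the TPM of 2 genes within each library (linear y axes from 0), with points for libraries, bars for means and whiskers for SD. In all 4 pairs the 3 GC libraries lie above every GC+GW9662 and Control library; Srsf7 over Srsf3, for example, is 3.04 to 3.35 in GC, 1.08 to 1.12 in GC+GW9662 and 0.87 to 1.02 in Control.

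Hnrnpab (chr11:51600100-51606847, minus strand, GRCm38), which binds both DNA and RNA and takes part in mRNA localization, was the most abundant of the 32 genes. It measured 296, 258 and 282 TPM in GC+GW9662, 830.2, 1195 and 1125 in GC and 472 and 441 in Control, with no overlap. GC was higher than Control by 1.18 ± 0.16 (limma adjusted p = 4.2e-04), and GC+GW9662 was -1.89 ± 0.14 against GC (adjusted p = 1.9e-05). Hnrnpab made up 24.1% to 27.6% of the summed hnRNP level in GC+GW9662, 45.5% to 48.3% in GC and 22.5% to 22.9% in Control. Against Control, GC+GW9662 was -0.71 ± 0.16 as deposited (adjusted p = 0.006) and -0.02 under median-ratio scaling, and that call was lost without Control replicate 1.

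Of the hnRNP A/B proteins other than Hnrnpab, which bind exonic silencers and travel with mRNA to the cytoplasm, Hnrnpa2b1 was the most abundant. It measured 149, 129 and 108 TPM in GC+GW9662, 161, 288 and 264 in GC and 286 and 265 in Control. GC replicate 1 lay close to the GC+GW9662 libraries and the other GC libraries close to Control. GC+GW9662 was -0.85 ± 0.22 against GC (limma adjusted p = 0.011) and -1.10 ± 0.25 against Control (adjusted p = 0.0059), the second of which became -0.41 under median-ratio scaling. Hnrnpa1, the best-studied silencer-binding hnRNP, measured 10.9, 10.7 and 5.04 TPM in GC+GW9662, 7.096, 13.6 and 13.03 in GC and 5.57 and 5.98 in Control and passed in no comparison as deposited. Its difference of GC from Control was 0.80 ± 0.37 (adjusted p = 0.097), and it passed higher under 6 of 22 alternatives, among them median-ratio scaling (1.26, adjusted p = 0.012) and removal of the length trend (1.37, adjusted p = 0.0054). Its level is uncertain, since 9 annotated pseudogenes match a transcript of it at 95% identity or more over at least 500 bases. Hnrnpa3, at 1.51 to 6.10 TPM, is uncertain for the same reason, with 25 near-identical genes of which 23 are pseudogenes. It passed lower in GC+GW9662 and in GC than in Control, and both calls were lost with the length trend removed (0.27 and -0.03). Both were also lost under quantile normalization and without Control replicate 1, which held 6.10 TPM beside 4.25 in the other Control library. The GC call was lost under median-ratio scaling as well (-0.47).

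The closely related Hnrnpd (AUF1) and Hnrnpdl bind AU-rich elements and are known for regulating mRNA decay. Hnrnpd measured 13.6, 18.5 and 8.201 TPM in GC+GW9662, 7.33, 16.9 and 13.8 in GC and 31.8 and 27.8 in Control. Both treated groups lay below Control, with a difference of -1.16 ± 0.39 in GC+GW9662 (limma adjusted p = 0.03) and -1.24 ± 0.39 in GC (adjusted p = 0.026). Both calls were lost without either Control library and under median-ratio scaling, and with the length trend removed the values were 0.38 and -0.23. Hnrnpdl was -0.48 ± 0.15 against GC (adjusted p = 0.025), at 28.5 ± 3.33 TPM in GC+GW9662 and 40.3 ± 6.29 in GC, and that call was lost without GC replicate 2 or 3 or GC+GW9662 replicate 3.

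The hnRNP H/F proteins bind runs of G and can act on either side of a splicing choice. Hnrnph2 (chrX:134601179-134607060, plus strand, GRCm38) measured 12.4, 12.3 and 10.02 TPM in GC+GW9662, 21.1, 42.96 and 38.4 in GC and 44.4 and 41.7 in Control. Its GC+GW9662 libraries were below all others, with a difference of -1.43 ± 0.25 from GC (limma adjusted p = 0.0017) and -1.82 ± 0.28 from Control (adjusted p = 0.0022). The second was -1.15 under median-ratio scaling and -0.77 with the length trend removed, and passed in both. Hnrnph1 averaged 31.6 ± 6.67 TPM in GC+GW9662 and 65.1 ± 18.8 in GC (mean ± SD), a difference of -0.998 ± 0.24 (adjusted p = 0.0079), and Hnrnpf averaged 30.9 ± 5.36 and 60.9 ± 6.46 TPM, a difference of -0.97 ± 0.15 (adjusted p = 1.0e-03). Neither gene passed in GC against Control as deposited, and both passed higher there under median-ratio scaling, at 0.94 and 0.84. Hnrnph3 passed in no comparison as deposited, and passed higher in GC against Control under 5 of 22 alternatives, among them median-ratio scaling (1.40, adjusted p = 0.036); its libraries ranged from 7.23 to 28.2 TPM within GC+GW9662 alone.

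The hnRNP U proteins are large scaffold proteins, of which Hnrnpu binds chromatin and nascent RNA and Hnrnpul1 and Hnrnpul2 are known from the DNA damage response. Hnrnpu (chr1:178321108-178337797, minus strand, GRCm38) measured 19.1, 22.1 and 12.7 TPM in GC+GW9662, 17.7, 109 and 82.7 in GC and 105 and 100.4 in Control. GC replicate 1 lay inside the GC+GW9662 range, and the other GC libraries lay 1 above and 1 below both Control libraries. The fall in GC+GW9662 was -1.59 ± 0.59 against GC (limma adjusted p = 0.046) and -2.49 ± 0.66 against Control (adjusted p = 0.012). Without GC replicate 1 the first was -2.37, and it was lost when any 1 of the 7 other libraries was left out (adjusted p up to 0.14 over all alternatives), and the fall against Control was lost without either Control library and with the length trend removed (-0.87, adjusted p = 0.13). Hnrnpul2 measured 16.2, 15.7 and 16.3 TPM in GC+GW9662, 16.1, 80.02 and 63.4 in GC and 96.8 and 94.8 in Control. GC replicate 1 again lay with the GC+GW9662 libraries, and both other GC libraries lay below both Control libraries. It was -1.39 ± 0.51 against GC (adjusted p = 0.042, lost when any 1 of the 7 other libraries was left out, and -2.08 without GC replicate 1) and -2.50 ± 0.56 against Control (adjusted p = 0.006, -1.17 with the length trend removed).

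In Hnrnpul1 (chr7:25721165-25754757, minus strand, GRCm38) both treated groups were low. It measured 21.4, 24.3 and 23.7 TPM in GC+GW9662, 14.8, 36.4 and 31.2 in GC and 78.4 and 74.8 in Control. Against Control it was -1.69 ± 0.33 in GC+GW9662 (limma adjusted p = 0.0036) and -1.54 ± 0.33 in GC (adjusted p = 0.0044), and the treated groups overlapped. With the length trend removed these were -0.71 and -0.86. Hnrnpl (chr7:28808541-28822266, plus strand, GRCm38), which binds CA repeats, measured 36.8, 37.3 and 33.97 TPM in GC+GW9662, 32.96, 67.3 and 54.4 in GC and 110.3 and 105 in Control. Its differences from Control were -1.56 ± 0.26 in GC+GW9662 (adjusted p = 0.0025) and -1.11 ± 0.26 in GC (adjusted p = 0.0071), which were -0.87 and -0.57 under median-ratio scaling. Its paralogue Hnrnpll, known for setting the isoforms of Ptprc in lymphocytes, averaged 12.2 ± 1.59 TPM in GC+GW9662, 24.7 ± 6.29 in GC and 31.4 ± 0.125 in Control, and passed lower in GC+GW9662 against GC (-0.93 ± 0.20, adjusted p = 0.005, and -0.51 with the length trend removed).

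The remaining hnRNP genes differed less or less firmly. Hnrnpk, which binds C-rich RNA and DNA, measured 178, 144 and 153 TPM in GC+GW9662, 153, 164 and 165 in GC and 204 and 201 in Control. Control was the highest group, and the small differences from it passed (-0.36 ± 0.12 in GC+GW9662, limma adjusted p = 0.025, and -0.34 ± 0.12 in GC, adjusted p = 0.038) and turned to 0.33 and 0.21 under median-ratio scaling. They passed lower under 11 and 9 of 22 alternatives. With the length trend removed, the Hnrnpk difference of GC+GW9662 from Control passed higher (0.31, adjusted p = 0.047). Hnrnpa0, a small relative of the A/B proteins, passed lower in all 3 comparisons as deposited. It averaged 125 ± 7.37 TPM in GC+GW9662, 157 ± 13.4 in GC and 199 ± 7.51 in Control. Under median-ratio scaling all 3 calls were lost. There the difference was 0.20 in GC against Control and -0.18 in GC+GW9662 against GC (limma adjusted p = 0.13). In GC+GW9662 against Control it was 0.02 (adjusted p = 0.89). The Hnrnpa0 calls held under 9, 13 and 19 of 22 alternatives in these 3 comparisons. Hnrnpc, which binds U-rich tracts and keeps cryptic exons silent, passed in no comparison as deposited. It averaged 118 ± 7.72 TPM in GC+GW9662, 114 ± 4.39 in GC and 135 ± 2.68 in Control. Hnrnpc passed higher in GC+GW9662 than in Control under median-ratio scaling (0.49, adjusted p = 0.016). Hnrnpm, which binds GU-rich sites, passed lower in GC+GW9662 against GC (-0.87 ± 0.31, adjusted p = 0.038) and against Control (-1.51 ± 0.34, adjusted p = 0.0061); the first call was lost when any 1 library other than GC replicate 1 was left out, and the second with the length trend removed (-0.48, adjusted p = 0.14). Hnrnpr stood at 2.095 ± 0.436 TPM in GC+GW9662, 2.78 ± 1.105 in GC and 6.33 ± 0.0966 in Control, and its fall in GC (-0.999 ± 0.28, adjusted p = 0.017) became 0.41 with the length trend removed and was lost without either Control library, its longest annotated transcript having 21452 bases. The Hnrnpr difference of GC+GW9662 from Control was -1.25 as deposited (adjusted p = 0.0059). With the length trend removed it was 0.72 and passed higher (adjusted p = 0.014).

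The way scaling moved each gene is shown by setting the deposited values beside both rescaled ones. Between GC and Control, every one of the 32 differences moved up under median-ratio scaling, and the genes near 0 changed side. Between GC+GW9662 and GC each of the 32 moved by less than in that comparison. Across the 32 genes, the rank correlation of longest transcript length with the difference was -0.63 in GC against Control, 0.09 in GC+GW9662 against GC and -0.36 in GC+GW9662 against Control (Spearman's rho over 32 genes of the same libraries, a description). The median longest transcript had 3714 bases in hnRNP genes and 3504 in SR and Tra2 genes, against 2848 in all tested genes.

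**Figure D4:**
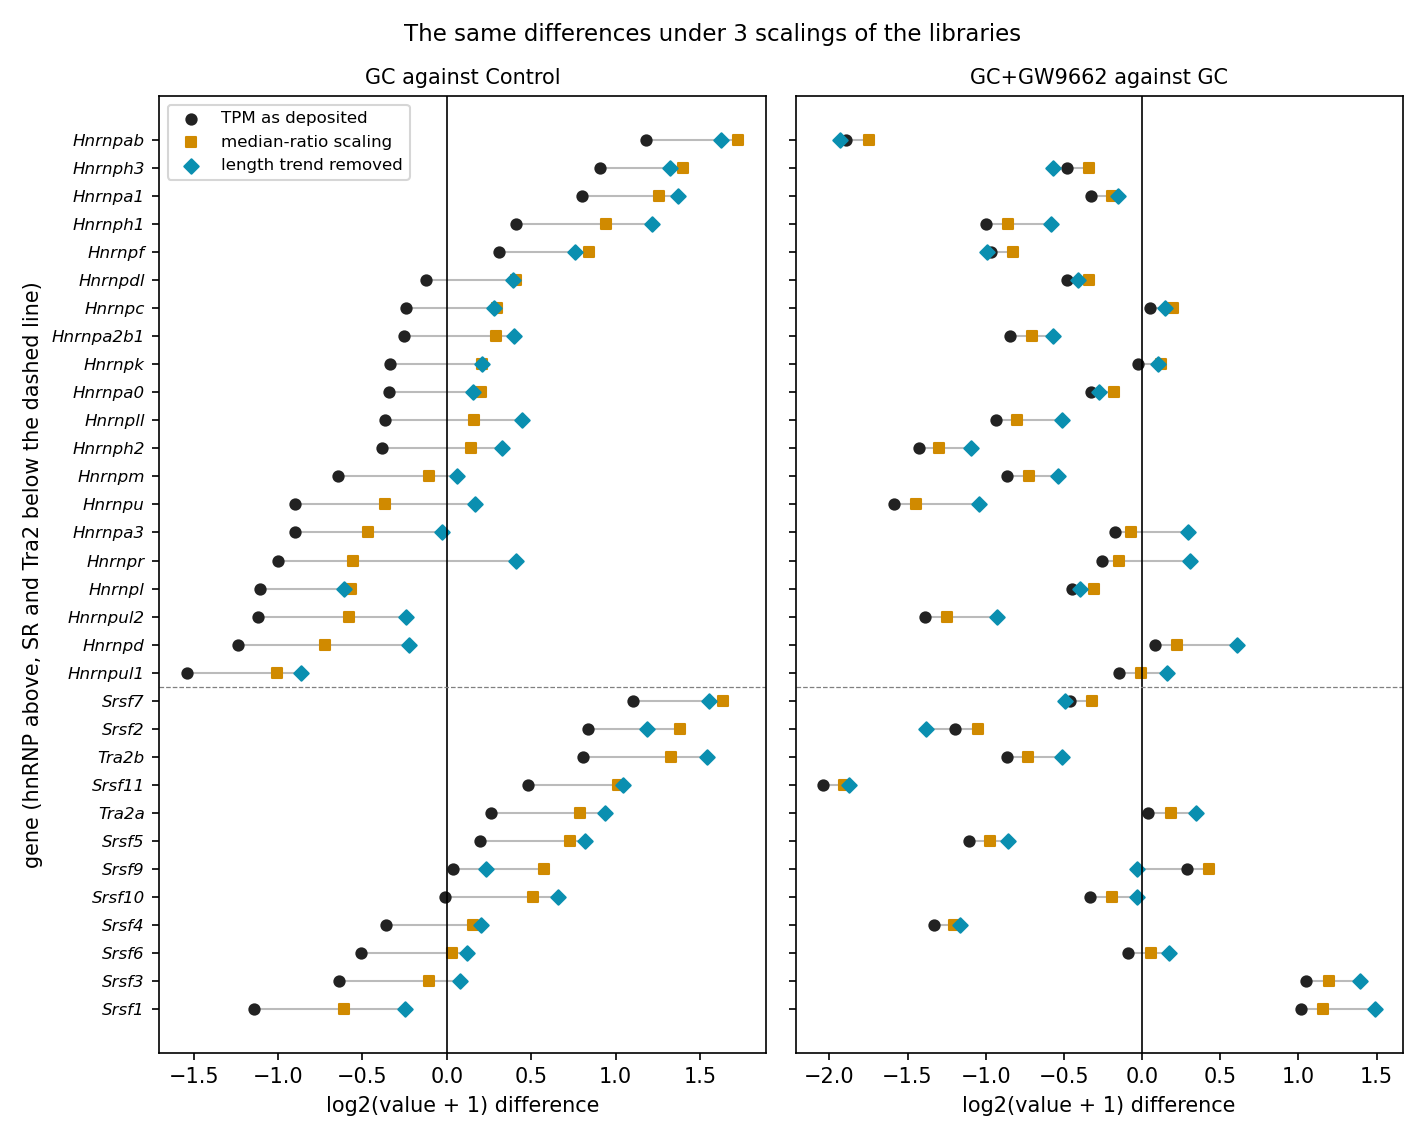
Differences of 32 splicing genes (rows) on a log2 scale (x axis) from TPM as deposited (circles), after median-ratio scaling (squares) and with the length trend removed (diamonds), for GC against Control and for GC+GW9662 against GC. In the left panel Srsf3, Srsf6 and Hnrnpk cross or reach 0 while Hnrnpab, Srsf2, Srsf7 and Tra2b stay right of it; in the right panel Srsf1 and Srsf3 stay right and Srsf11 and Hnrnpab stay left under all 3.

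The deposited table gives 1 total per gene, so productive transcripts and those with a premature stop are counted together. Of the 12 SR and Tra2 genes, 11 (91.7%) have at least 1 transcript annotated as an NMD target in GENCODE M21, as do 10 of 20 hnRNP genes and 28.1% of 12128 tested protein-coding genes. Counting limits apply to few of the genes. The fewest estimated reads in a library were 86 for Hnrnpa3 and 163 for Srsf4, and the most were 34314 for Hnrnpab. The libraries carry no strand, so reads of overlapping genes cannot be told apart. Some overlaps follow, each with the neighbour's mean TPM over all libraries. Exons of Srsf2 overlap Mettl23 over 460 bases (32.0 TPM) and Mfsd11 over 288 (63.2 TPM). Exons of Hnrnpab overlap Phykpl over 809 (3.04 TPM), and exons of Hnrnpu overlap Cox20 over 804 (64.9 TPM). Hnrnpm overlaps March2 on the same strand over 1169 (91.5 TPM). Srsf4 overlaps Gm12992 over 1532 (0.73 TPM), and Hnrnpd overlaps Gm17092 over 385 (6.04 TPM). Hnrnpc and Hnrnpk have near-identical pseudogenes listed at 30.2 TPM (Gm12696) and 40.9 TPM (Gm7964) on average, Srsf10 has 1 at 6.13 TPM (Gm9134), and the levels of these 3 genes are uncertain for that reason.

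The kinases that phosphorylate SR proteins, the phosphatase that removes the phosphate and the importer Tnpo3 form the first of 5 lists of partner genes. In GC against Control, 2 of 10 tested genes rose and 2 fell, and in GC+GW9662 against GC, 1 rose and 6 fell (5 higher and 0 lower, and 1 higher and 6 lower, with the length trend removed). Of all tested genes 16.2% rose and 39.1% fell in GC against Control, 28.3% and 33.5% in GC+GW9662 against GC, and 14.1% and 48.6% in GC+GW9662 against Control, and the counts of all 5 lists stand beside these shares. Clk1, a kinase that releases SR proteins from nuclear speckles, averaged 39.9 ± 6.37 TPM in GC and 18.04 ± 0.635 in Control (mean ± SD), a difference of 1.09 ± 0.18, adjusted p = 0.0012. Srpk2, a cytoplasmic SR protein kinase, averaged 5.75 ± 2.93 TPM in GC and 15.2 ± 1.31 in Control, a difference of -1.37 ± 0.38, adjusted p = 0.016, which was -0.38 with the length trend removed and no longer passed (adjusted p = 0.13). With GW9662, Dyrk1a, another kinase of splicing factors, averaged 5.34 ± 0.627 TPM in GC+GW9662 and 34.4 ± 17.96 in GC (-2.33 ± 0.38, adjusted p = 0.0012), and Ppp1ca, a catalytic subunit of protein phosphatase 1, averaged 1213 ± 45.8 TPM in GC+GW9662 and 567 ± 144 in GC (1.13 ± 0.17, adjusted p = 7.3e-04).

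The core spliceosome showed no single direction. Of 19 core snRNP genes, 2 rose and 3 fell in GC against Control, and 6 rose and 6 fell in GC+GW9662 against GC (5 and 3, and 5 and 9, with the length trend removed), beside 16.2% and 39.1%, and 28.3% and 33.5%, of all tested genes. Snrpe, a small Sm ring protein with a short transcript, averaged 288 ± 39.9 TPM in GC+GW9662 and 79.1 ± 22.04 in GC (1.88 ± 0.20, adjusted p = 1.4e-04), and Prpf3, a U4/U6 snRNP protein, 3.24 ± 1.16 TPM in GC+GW9662 and 16.6 ± 9.52 in GC (-1.90 ± 0.45, adjusted p = 0.0073). Prpf8, the scaffold of the catalytic centre, averaged 27.5 ± 18.9 TPM in GC and 83.9 ± 3.16 in Control (-1.90 ± 0.63, adjusted p = 0.033, lost under median-ratio scaling at -1.37 and with the length trend removed at -0.84), and Snrnp40, a U5 snRNP protein, 55.6 ± 7.95 TPM in GC and 39.7 ± 4.27 in Control (0.47 ± 0.15, adjusted p = 0.028). Of 15 U2 snRNP and U2AF genes, which recognise the branch point and the 3′ splice site, 3 rose and 4 fell in GC against Control (7 and 1 under median-ratio scaling) and 2 rose and 6 fell in GC+GW9662 against GC (1 and 8 with the length trend removed). Snrpa1, a U2 snRNP protein, averaged 48.2 ± 5.62 TPM in GC and 20.96 ± 0.791 in Control (1.16 ± 0.14, adjusted p = 2.4e-04), Sf3a1 16.6 ± 7.11 TPM in GC and 48.5 ± 0.374 in Control (-1.59 ± 0.34, adjusted p = 0.0044, and -0.74 with the length trend removed), Sf3b4 16.6 ± 1.798 TPM in GC+GW9662 and 58.3 ± 13.1 in GC (-1.74 ± 0.17, adjusted p = 8.7e-05) and Snrpb2 106 ± 2.51 TPM in GC+GW9662 and 63.5 ± 11.8 in GC (0.74 ± 0.14, adjusted p = 0.0021).

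Of 33 other splicing regulators, 7 rose and 10 fell in GC against Control, 3 rose and 17 fell in GC+GW9662 against GC, and 0 rose and 29 fell in GC+GW9662 against Control (0 higher at an unadjusted p under 0.05 and 1 by limma voom). Beside them, the shares of all tested genes were 16.2% and 39.1%, 28.3% and 33.5%, and 14.1% and 48.6%. Under median-ratio scaling the list counts were 13 and 7, 3 and 16, and 3 and 20, and with the length trend removed 15 and 6, 5 and 16, and 9 and 11. Ptbp2, the paralogue of the polypyrimidine tract binding protein best known from neurons, averaged 25.8 ± 1.98 TPM in GC and 4.97 ± 0.0386 in Control (2.16 ± 0.16, adjusted p = 1.8e-05). Mbnl1, a muscleblind protein that controls developmental splicing, averaged 20.5 ± 5.56 TPM in GC and 209.6 ± 0.244 in Control (-3.33 ± 0.23, adjusted p = 1.3e-05) and 62.8 ± 9.97 TPM in GC+GW9662 and 20.5 ± 5.56 in GC (1.59 ± 0.21, adjusted p = 3.5e-04), 2 comparisons that share the GC libraries.

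The NMD factors, which destroy the unproductive SR transcripts, were mostly lower with GW9662. Of 10 genes, 0 rose and 8 fell in GC+GW9662 against GC, with the same counts under median-ratio scaling and with the length trend removed, and 0 rose and 10 fell in GC+GW9662 against Control (0 and 9 under median-ratio scaling, 0 and 5 with the length trend removed). In both comparisons 0 were higher at an unadjusted p under 0.05 in limma, and 0 by limma voom. Of all tested genes 33.5% fell against GC and 48.6% against Control. In GC against Control 1 of the 10 rose and 2 fell, beside 16.2% and 39.1% of all genes, and the counts were 3 and 2 under median-ratio scaling and 5 and 1 with the length trend removed. Smg9, a regulator of the NMD kinase, averaged 42.3 ± 10.8 TPM in GC and 23.6 ± 0.973 in Control (0.79 ± 0.23, adjusted p = 0.018) and 7.54 ± 0.911 TPM in GC+GW9662 and 42.3 ± 10.8 in GC (-2.31 ± 0.20, adjusted p = 4.1e-05). Smg6, the endonuclease of the pathway, averaged 6.45 ± 3.41 TPM in GC and 17.8 ± 0.502 in Control (-1.47 ± 0.42, adjusted p = 0.017), which was -0.52 with the length trend removed and no longer passed (adjusted p = 0.083). The lists are described by these counts alone, and the medians over their tested genes in GC+GW9662 against GC were -1.11 for SR kinases and import, -0.26 for core snRNP genes, -0.83 for U2 snRNP and U2AF genes, -0.97 for other regulators and -1.37 for NMD factors, beside -0.11 over all tested genes.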

How the data were processed

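RNA of 8 libraries (3 GC+GW9662, 3 GC, 2 Control) was made into Smart-Seq2 libraries, which carry no strand, per the labels' protocols. The values used are the TPM deposited by the authors, reads over gene length scaled to 1 total per library; fastp, HISAT2 2.1.0 and featureCounts are named in the submitters' processing notes, and build, annotation and filters are not given in the sources used here. Starts and ends equalled those of GENCODE M21 (GRCm38) in 97.4% of rows. The file held 54232 rows for 54134 genes; 96 of 98 repeated symbols had the same values on each row, and 27 date-like symbols were put right through their Ensembl IDs. TPM times the longest M21 transcript length was a whole multiple of 1 step in 99.7% to 99.9% of genes under 50 reads (tolerance 0.05), which gave the depths. Srsf3, Srsf7 and Hnrnpul2 differed from M21 in start or end, and their estimated reads were not whole numbers. The lengths behind their TPM may therefore differ from those of M21, and their length-trend and voom values carry that uncertainty. PCR copies were not marked by molecular identifiers, and depth covers counting error only. No 2 libraries were identical.

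The 14985 genes that reached 1 TPM in 2 or more libraries entered limma 3.58.1 on log2(TPM + 1) (R 4.3.3, data.table version 1.17.8; group means over 8 libraries, prior following mean expression), two-sided, with Benjamini-Hochberg adjustment at 0.05 within each comparison. This scale understates changes of low genes. The fit was tested on simulated data, and no outcome of that test is reported here. Near-identical copies were found with BLAST 2.17.0; Python 3.11.15 with numpy 2.4.6, pandas 2.3.3, scipy 1.17.1 and matplotlib 3.10.9 made tables and plots.

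The members and lists were chosen with earlier results of these data known. Values per library are given for the 3 largest rises and falls among passing hnRNP genes and among passing SR and Tra2 genes in each comparison, for the 3 genes of highest mean level and for Srsf1, Srsf3, Hnrnpa1, Hnrnpk, Tra2a and Tra2b; from each partner list the largest passing rise and fall are named, apart from 1 gene that is not reported here. Other members are given by group means. Ratios of gene pairs were chosen after their values were seen. Promoters came from RefSeq, with 30 of 32 genes matched. The alternatives were other pseudocounts, filters, scalings, priors, samples and replicate blocks, single libraries left out and, chosen after seeing the data, limma voom on the estimated reads. Labels name no batch.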

Additional observations from a re-analysis of the deposited data

Results flagged for a closer look

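Rows outside the 32 genes held signal above both Control libraries. Hnrnpa1l2-ps, a pseudogene left out by its name (chr13:74864305-74865356, GRCm38), averaged 3.38 TPM in GC+GW9662, from 3.32, 6.65 and 0.188 TPM in its 3 libraries, against 0.294 and 0.0912 TPM in Control. Its GC libraries held 0, 0.257 and 0.0836 TPM. An uneven split within GC+GW9662, with the third library lowest, also appeared in other near-identical copies of hnRNP genes, of which 4 follow. Gm7729 averaged 10.4 TPM in GC+GW9662 (16.2, 14.6 and 0.451) and 2.13 TPM in GC, against 2.12 and 1.87 TPM in Control. Gm5643 averaged 6.22 TPM in GC+GW9662 (4.91, 13.7 and 0), against 0.293 and 0.0911 TPM in Control. Gm6153, a copy of Hnrnpa3, averaged 2.70 TPM in GC+GW9662 (1.19, 6.92 and 0), against 0.357 and 0.0831 TPM in Control. Gm7964, a copy of Hnrnpk, averaged 49.7 TPM in GC+GW9662 (51.5, 72.3 and 25.3), against 41.9 and 39.4 TPM in Control. The 3 libraries were close in Gm12696, a copy of Hnrnpc (32.9, 34.0 and 30.0 TPM in GC+GW9662), and the order differed in Gm4130, a copy of Hnrnpk, whose first library was the lowest (2.60, 3.96 and 3.45 TPM). Hnrnpa1 itself measured 10.9, 10.7 and 5.04 TPM in GC+GW9662. Reads that match a gene and its copies can be assigned to either, and how they were shared was not tested.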

How the results depend on the processing

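Counts are given as genes higher and genes lower of 32. For GC+GW9662 against GC (3 and 17 as reported), limma voom on the estimated reads, chosen after seeing the data, gave 6 and 11, and leaving out 1 library gave 2 to 3 and 11 to 20. For GC against Control (4 and 10), the counts were 14 and 3 under median-ratio scaling, 12 and 3 under quantile normalization, 14 and 2 with the length trend removed, 7 higher after rescaling without mitochondrial and top 20 genes and 8 higher under voom; leaving out 1 library gave 4 to 8 and 4 to 11. For GC+GW9662 against Control (3 and 21), they were 8 and 11, 8 and 12, 11 and 6, and 5 and 13 under median-ratio scaling, quantile normalization, length trend removed and voom; leaving out 1 library gave 1 to 4 and 12 to 22. The cause of these shifts was not tested. Other pseudocounts, filters, priors and samples kept all counts within 1.5 times.

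Replicate numbers showed no sign of pairing the libraries: deviations of same-numbered GC+GW9662 and GC libraries correlated at -0.10, -0.12 and 0.08. Control was not part of this check, and so few libraries cannot exclude pairing. With a replicate block by title number the counts were 4 and 7 in GC against Control, 2 and 13 in GC+GW9662 against GC and 1 and 17 in GC+GW9662 against Control, and by bracketed number 4 and 8, 2 and 16 and 1 and 20.

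Directions that turned, in log2 and where either value passed, were as follows. In GC against Control, median-ratio scaling gave Hnrnpa0 0.20, Hnrnpdl 0.41, Hnrnpk 0.21, Srsf10 0.51 and Srsf6 0.029, removal of the length trend gave Hnrnpa0 0.16, Hnrnpdl 0.39, Hnrnpk 0.21, Hnrnpll 0.45, Hnrnpr 0.41, Srsf10 0.66, Srsf3 0.079 and Srsf6 0.12, and quantile normalization gave Srsf10 0.55. In GC+GW9662 against GC, removal of the length trend gave Srsf9 -0.032 and voom gave Hnrnpk 0.29. In GC+GW9662 against Control, median-ratio scaling gave Hnrnpa0 0.019, Hnrnpc 0.49, Hnrnpdl 0.071, Hnrnpf 0.017, Hnrnpk 0.33, Srsf2 0.33, Srsf6 0.084 and Tra2b 0.60. There, removal of the length trend gave Hnrnpa3 0.27, Hnrnpc 0.43, Hnrnpd 0.38, Hnrnph1 0.63, Hnrnpk 0.31, Hnrnpr 0.72, Srsf1 1.24, Srsf10 0.63, Srsf6 0.29 and Tra2b 1.03. Quantile normalization gave Hnrnpdl 0.026, Srsf10 0.48 and Tra2b 0.80, and voom gave Hnrnpk 0.13, Srsf2 0.14 and Tra2b 0.44. Of the other values of single genes under these alternatives, 1765 kept direction and side of the threshold, 58 changed sign without passing before or after, 185 lost the call and 61 gained one.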
